A study of Mus musculus with 20 samples.

Results

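The lysosomal machinery of liver MoMac (monocyte-derived macrophages) was examined through 51 genes chosen by name. They comprised 9 cysteine proteases, 3 other proteases, 10 glycosidases, 4 sulfatases, 7 genes for lipid breakdown or transport, 2 acid phosphatases, 7 membrane proteins, 7 subunits of the proton pump and 2 regulators. All 51 had a row among the 59311 genes of the deposited table, and 49 of them were among the 17248 genes with enough reads to be tested (a mean of at least 10 normalized counts in at least 1 of the 4 groups). Ctsf and Sgsh did not reach that level: they were listed at 0 in 18 and 17 of the 20 libraries. Glb1 shared a row with Tmppe, and Atp6v0c shared a row with the pseudogene Atp6v0c-ps2, so reads of these partners could not be told apart.

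The cells came from male C57BL/6 mice with liver fibrosis after 4 weeks of carbon tetrachloride (CCl4), a toxin that injures hepatocytes, and controls carried this injury too. 5 mice (11 to 15) received vehicle (DMSO in saline) and 5 mice (16 to 20) received Ac-6-FP, which binds the antigen-presenting molecule MR1 and holds back activation of MAIT cells, a class of innate-like T cells. Injections began shortly before the last CCl4 dose and went on daily after it, during regression of the scar. From each liver, F4/80+ CD11b+ cells without Ly6G, CD11c or CD3 on their surface were sorted into a Ly6C hi and a Ly6C lo population, which gave 20 libraries of RNA and 10 within-mouse pairs. The compound was injected into the whole animal, so it was not confined to the sorted cells.

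Lysosomes are acidic organelles that digest what a cell engulfs and what autophagy delivers from within. The V-ATPase pumps protons into the lumen, proteases, glycosidases, sulfatases and lipases work at the resulting pH, and glycosylated membrane proteins such as LAMP1 and LAMP2 line the inner face. TFEB is a transcription factor that binds a palindromic element (the CLEAR motif, built on the E-box CACGTG) in promoters of many lysosomal genes. In an injured liver, macrophages clear dead hepatocytes and collagen through this compartment. Ly6C hi cells are recent arrivals from blood, and Ly6C lo cells are a later state that is known for scar resolution.

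The libraries differed in depth and in the number of genes they detected. Between 5693049 and 18682437 reads per library fell on genes, and 5343 to 15766 genes were above 0. The Ly6C lo library of vehicle mouse 13 was the shallowest in both respects and listed 18 of the 51 genes at 0. Elsewhere 2 to 12 of the 51 were at 0, with 4 to 12 in Ly6C hi vehicle libraries and 3 to 7 in Ly6C hi Ac-6-FP libraries. In both subsets vehicle mice 12, 13 and 14 had the fewest genes above 0, so the number of genes detected moved with treatment and its part in the treatment comparisons was not tested beyond the fits that include it as a covariate. A value of 0 means that no read was counted, and it allows an expected count of up to 3 reads, a limit that covers counting error only. In total 33 of the 51 genes were above 0 in every library.

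The 51 genes together took 2.50 to 3.48% of reads in Ly6C hi vehicle libraries, with a median of 3.03%. Ly6C lo vehicle libraries spent 1.74 to 2.70% of their reads on them (median 2.19%). With Ac-6-FP the share was 2.75 to 3.50% in Ly6C hi (median 3.21%) and 2.62 to 3.34% in Ly6C lo libraries (median 2.90%). The Ly6C lo vehicle range lay below that of Ly6C hi Ac-6-FP and overlapped the other 2. As the plot by library shows, the lowest shares came from the Ly6C lo libraries of vehicle mice 12, 13 and 14, which also detected few genes.

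**Figure D1:**
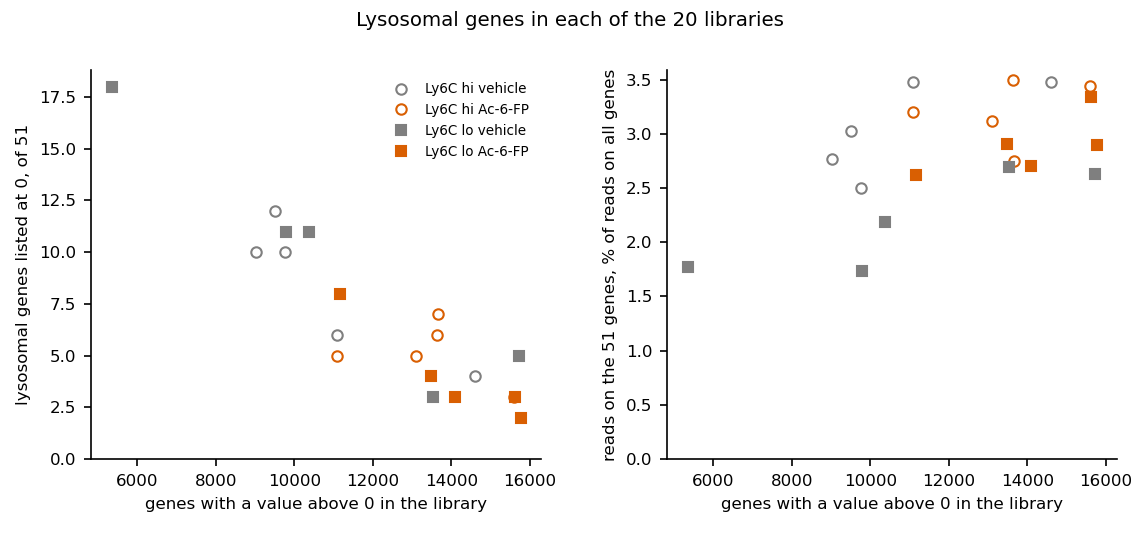
Each point is 1 of the 20 libraries, placed by how many genes it listed above 0 (x axes). The y axes give how many of the 51 lysosomal genes were listed at 0 (left) and the percentage of all reads on genes that fell on the 51 (right). The Ly6C lo library of vehicle mouse 13 stands alone at 5343 genes, with 18 lysosomal genes at 0.

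The first comparison set Ly6C hi against Ly6C lo MoMac within each of the 10 mice. Lysosomal genes were called in both directions. Ctsc, Psap, Npc2, Lamp2, Hexa and Atp6v1b2 were higher in Ly6C hi, by 1.61-fold to 2.92-fold as fitted, while Acp5, Ctsk, Acp2, Ctsd and Ctsb were higher in Ly6C lo MoMac, from 1.46-fold for Ctsb to 9.03-fold for Acp5, with Ctsk at 0 in Ly6C hi. Differences were taken on the log2(normalized count + 1) scale with limma, and a gene was called at an adjusted p under 0.05 over all 17248 genes. Of the 49 lysosomal genes tested, 6 were called higher in Ly6C hi (12.2%), where 1.81% of all genes tested were, and 5 were called higher in Ly6C lo (10.2%), against 3.41% of all genes. One of the latter, Ctsk, entered the test only through its mean in Ly6C lo Ac-6-FP libraries, so for it a direction toward Ly6C lo was set by the filter.

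Strongly expressed genes were called more often, lysosomal or not. Among genes with a group mean of at least 1000 normalized counts, 19.1% of 2618 were called in either direction, and so were 10 of the 30 lysosomal genes at that level. The median within-mouse difference of the 49 genes was 0.047 (28 higher in Ly6C hi, 21 lower), beside -0.034 over all genes tested. Without mouse 13 both medians were below 0, at -0.017 for lysosomal genes and -0.18 for all genes. Psap, Npc2, Ctsc, Hexa, Atp6v1a and Atp6v0c were higher in Ly6C hi in all 10 mice, as 1.87% of all genes were. Acp5 was higher in Ly6C lo in all 10 mice, as 1.98% of all genes were.

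The 2 sorted populations differed in more than Ly6C. As defining genes of the sort, Ly6c2 averaged 7403 ± 1691 (SD, n = 10) normalized counts in Ly6C hi and 688 ± 198 in Ly6C lo libraries, and Ccr2, a marker of recently arrived monocytes, was called higher in Ly6C hi. Summed markers of T and NK cells (4 of 5 with a row) ran from 0 to 139.7 in Ly6C hi and 5795 to 14328 in Ly6C lo libraries. The NK genes Klrb1c and Ncr1 carried that sum, and Cd3e was at 0 in 10 Ly6C hi and 8 Ly6C lo libraries. Summed neutrophil markers (8 of 8) ran from 4403 to 14617 in Ly6C hi and 343 to 27119.9 in Ly6C lo libraries. Of these, Elane and Mpo were called higher in Ly6C hi, and Ngp and Camp higher in Ly6C lo. Ngp and Camp entered the test only through Ly6C lo means, so their direction was set by the filter. Dendritic cell markers (5 of 5) summed to 0 to 330.4 in Ly6C hi and 255 to 3536 in Ly6C lo libraries, and Itgax, which encodes the CD11c left out by the sort, was at 0 in all 10 Ly6C hi libraries and averaged 1640.3 ± 992 in Ly6C lo. Macrophage markers (5 of 5) summed to 127069 to 166210 in Ly6C hi and 50371 to 92192 in Ly6C lo libraries. The joint row of Lyz1 and Lyz2 carried that sum, at 124104 ± 11504 and 42229 ± 11174 (SD, n = 10), while the other 4 macrophage markers were not called, with Csf1r at a difference of -0.50 (SE 0.22, limma adjusted p = 0.271). Kupffer cell markers (6 of 6) summed to 0 to 246 in Ly6C hi and 0 to 808 in Ly6C lo libraries, with Timd4 at 0 in 8 of the 10 Ly6C lo libraries and Marco called higher in Ly6C lo (means of 11.4 and 109). Hepatocyte markers (4 of 4) summed to 103 to 1201 in Ly6C hi and 1018 to 2184 in Ly6C lo libraries, and Apoa1 was called higher in Ly6C lo (means of 171 and 667). Endothelial Clec4g (means of 6.95 and 104) and the B cell gene Cd79a (means of 8.84 and 138) were called higher in Ly6C lo too. For Cd79a, which passed the filter only through Ly6C lo means, that direction was set by the filter. The part of these cells in the differences below was not tested. In sorted bulk RNA, fewer cells of a type and less RNA per cell cannot be told apart.

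**Figure D2:**
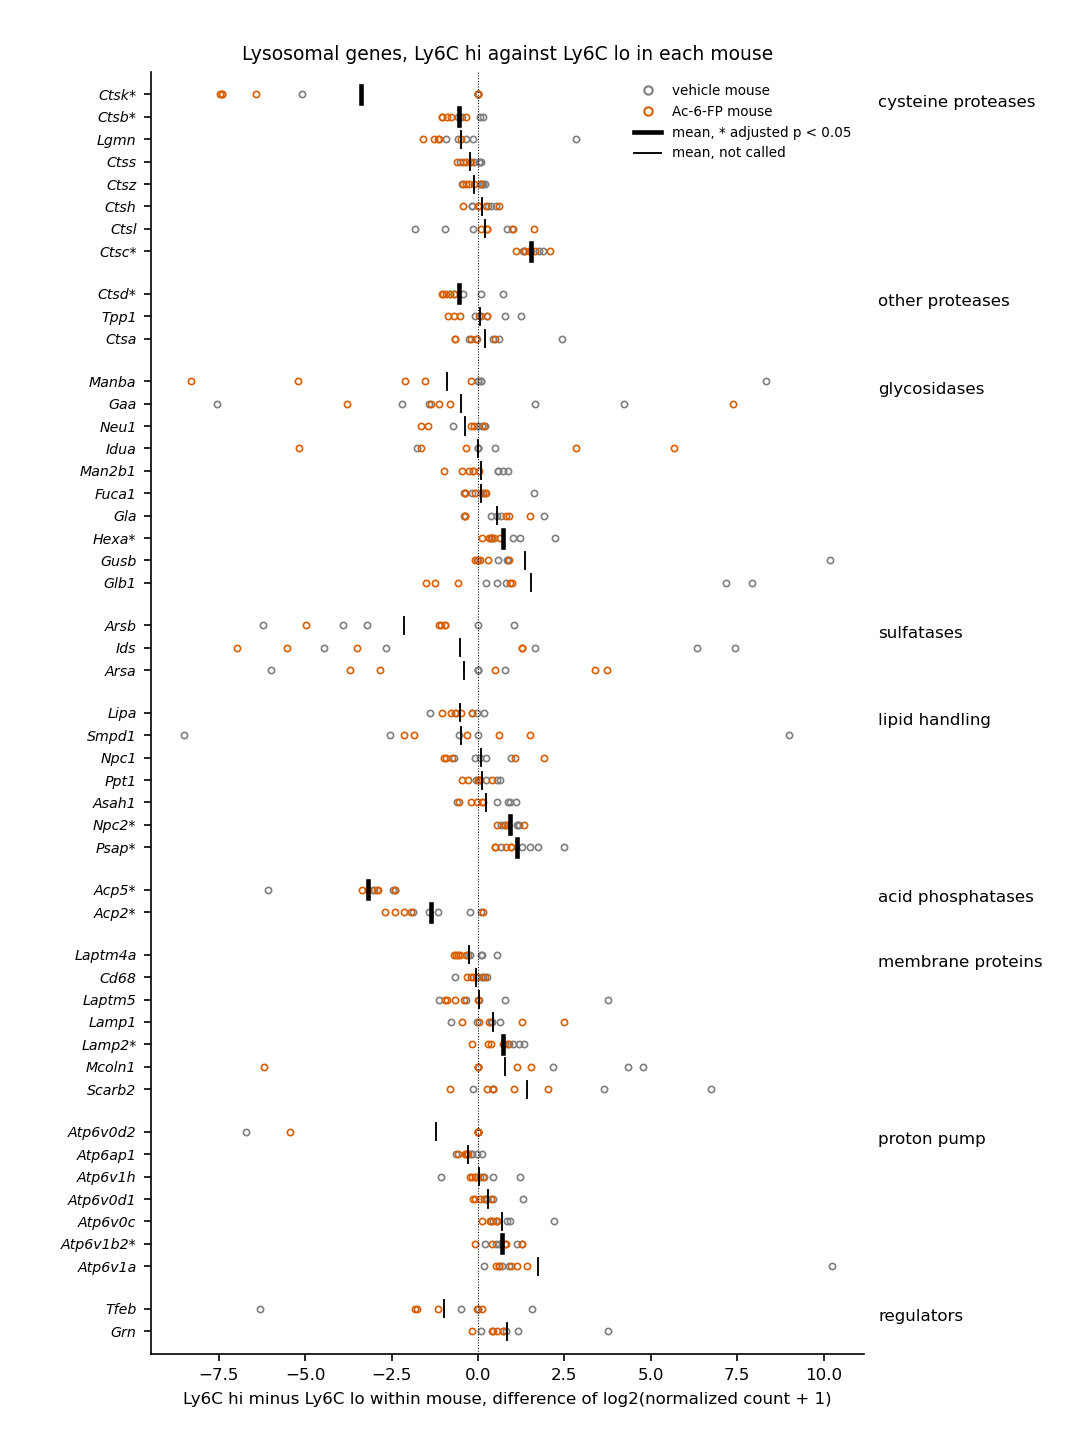
Each point is the difference Ly6C hi minus Ly6C lo within 1 mouse on the log2(normalized count + 1) scale (x axis) for each lysosomal gene tested (rows, grouped by role), and positive values mean higher in Ly6C hi. Points of Ctsc, Psap and Npc2 lie to the right of 0 in all 10 mice, and those of Acp5 to the left in all 10.

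Cysteine proteases split between the subsets. Ctsc (GSMG0034753, chr7:88278085-88315861, mm10) encodes cathepsin C, the dipeptidyl peptidase that activates granule serine proteases. Ctsc held 31977, 30630.3, 32055, 37520.1 and 34872 in vehicle mice and 19082, 28732, 30436, 28321 and 31147 in Ac-6-FP mice in Ly6C hi MoMac (normalized counts, mice in order of number). In Ly6C lo MoMac Ctsc held 10954, 12257, 13046, 11073 and 9402 in vehicle mice and 8841, 9242, 11035, 10961 and 7413 in Ac-6-FP mice. No Ly6C lo library reached the lowest Ly6C hi value. The means were 30477 ± 4849.6 and 10422 ± 1687 (SD, n = 10), and the within-mouse difference was 1.55 (SE 0.09, limma adjusted p = 1.27e-06). No other called lysosomal gene was further toward Ly6C hi.

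Ctsb (GSMG0011684, chr14:63122462-63145921) encodes cathepsin B, an abundant endo- and exopeptidase, and went the other way. In Ly6C hi libraries Ctsb stood at 62888, 42382, 35932, 55939 and 61140.4 in vehicle mice and 44571, 49989.9, 47750.3, 61601 and 52486 in Ac-6-FP mice. In Ly6C lo libraries it stood at 56475, 58423, 53378, 54039 and 88015 in vehicle mice and 92462, 85474, 60952, 126268 and 98021 in Ac-6-FP mice. The subsets overlapped, and 8 of 10 mice were higher in Ly6C lo. The difference was -0.55 (SE 0.09, limma adjusted p = 0.00219), with means of 51468 ± 9038 in Ly6C hi and 77351 ± 24516 in Ly6C lo libraries (SD, n = 10). The mean within-mouse difference was -0.82 ± 0.29 (SD, n = 5) in Ac-6-FP mice, beside -0.27 ± 0.35 in vehicle mice, a contrast taken up further on. The call was lost with quantile normalization (limma adjusted p = 0.35). Exons of Ctsb overlap Fdft1 on the opposite strand. Whether counting used strand is not given in the sources used here, so reads of overlapping genes may have been shared.

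Ctsk (GSMG0024657, chr3:95499210-95509387), the collagen-degrading cathepsin K best known from osteoclasts, was listed at 0 in all 10 Ly6C hi libraries. Its Ly6C lo values were 0, 0, 0, 0 and 33.1 in vehicle mice and 168, 167, 0, 175 and 85.3 in Ac-6-FP mice. Every Ac-6-FP mouse but mouse 18 was above 0, and among vehicle mice only mouse 15 was. Its Ly6C lo means were 6.62 in vehicle and 119 in Ac-6-FP mice. Only the latter admitted Ctsk to the test, so its direction was set by the filter and no fold between the subsets is given. The fitted difference of -3.38 (SE 0.87, limma adjusted p = 0.0463) rests on 5 mice, depends on the pseudocount, and was not called by edgeR, by DESeq2 or when any of 9 mice was left out.

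The remaining cysteine proteases were not called. Ctss, cathepsin S of the antigen presentation pathway, averaged 40587 ± 5948 in Ly6C hi and 47704 ± 8144 in Ly6C lo libraries, with a difference of -0.23 (SE 0.06, limma adjusted p = 0.051). It was called with a pseudocount of 10, with a filter at a mean of 100 and with genes detected as a covariate. Lgmn (legumain), Ctsz, Ctsh and Ctsl had differences of -0.48, -0.10, 0.12 and 0.22. Lgmn was higher in Ly6C lo in 9 of 10 mice (SE 0.30), and without mouse 13, the exception, it was called.

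Among the other proteases, Ctsd (GSMG0036890, chr7:142375911-142387901), the aspartic protease cathepsin D, was higher in Ly6C lo. Ctsd held 6589, 5856, 2156, 4126 and 6003 in vehicle mice and 7921, 6944, 6841, 7153 and 11010.3 in Ac-6-FP mice in Ly6C hi MoMac (normalized counts, mice in order of number). Ly6C lo libraries of the same mice held, for Ctsd, 11484, 5475, 2918, 2490.3 and 9641 in vehicle mice and 13994, 14137, 11057, 14792 and 21077 in Ac-6-FP mice. The subsets overlapped and 8 of 10 mice were higher in Ly6C lo. The difference was -0.56 (SE 0.13, limma adjusted p = 0.0328), and it was no longer called when any of 9 mice was left out or when the samples were compared without pairing by mouse. Ctsa, the carboxypeptidase that also shields beta-galactosidase and neuraminidase, and Tpp1, a tripeptidyl peptidase, had differences of 0.21 and 0.05 and were not called.

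Of 10 glycosidases 1 was called. Hexa (GSMG0039620, chr9:59539539-59565109) encodes the alpha subunit of beta-hexosaminidase, which removes terminal hexosamines from gangliosides. Hexa held 3198, 1702, 2751, 3321 and 4249.9 in vehicle mice and 3773, 3985, 4904, 3819.9 and 5004 in Ac-6-FP mice in Ly6C hi MoMac (normalized counts, mice in order of number). In Ly6C lo MoMac Hexa held 2412, 1324, 593, 1419.8 and 2111 in vehicle mice and 2741, 3698, 3797, 3083 and 3240.1 in Ac-6-FP mice. The ranges overlapped, but each mouse was higher in Ly6C hi, by 0.11 to 2.21 on the log2 scale. The difference was 0.71 (SE 0.17, limma adjusted p = 0.0378), lost in 7 of 10 fits with 1 mouse left out, with edgeR, without pairing by mouse and with no filter on low values. Other glycosidases ranged from -0.89 for Manba (beta-mannosidase) to 1.53 for Glb1 (beta-galactosidase, joint row), with SEs of 1.05 and 0.83. Man2b1 (alpha-mannosidase) and Fuca1 (alpha-fucosidase), which were above 0 in every library, differed by 0.08 (SE 0.14) and 0.09 (SE 0.19). For Man2b1 this averages opposite signs, at 0.52 ± 0.40 in vehicle mice and -0.36 ± 0.39 in Ac-6-FP mice (SD, n = 5 each). The 3 sulfatases tested (Arsa, Arsb and Ids) were at 0 in 5 to 10 libraries, and none was called.

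Psap and Npc2, both soluble helpers of lipid breakdown, were higher in Ly6C hi in all 10 mice. Psap (GSMG0003044, chr10:60277628-60302599) encodes prosaposin, the precursor of the saposins that present sphingolipids to their hydrolases. Psap held 109985, 61358, 42994, 70144 and 100237 in vehicle mice and 72839.7, 95836, 97780.3, 117706 and 124742 in Ac-6-FP mice in Ly6C hi MoMac (normalized counts, mice in order of number). Ly6C lo libraries of the same mice held, for Psap, 68700.5, 21609, 12988, 12497 and 41775 in vehicle mice and 52129.6, 67552, 55839, 61082 and 64237 in Ac-6-FP mice. Values spread widely within each subset and overlapped, but in each mouse the Ly6C hi library was the higher, by 0.48 to 2.49 on the log2 scale. The difference was 1.14 (SE 0.13, limma adjusted p = 0.000287).

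Npc2 (GSMG0009120, chr12:84754560-84773112), the soluble cholesterol carrier of the lysosome lumen, varied less between mice. Its Ly6C hi values were 28765, 31202, 27316, 27942 and 31589.9 in vehicle mice and 27813, 22568, 28312, 29764 and 24751 in Ac-6-FP mice. Its Ly6C lo values were 17022, 19757, 12151, 12376 and 14474 in vehicle mice and 15340, 12278, 19456, 11741 and 14525 in Ac-6-FP mice. The lowest Ly6C hi value (22568) was above the highest Ly6C lo value (19757), with means of 28002 ± 2739 and 14912 ± 2984 (SD, n = 10) and a difference of 0.93 (SE 0.08, limma adjusted p = 2.29e-05). Its membrane-bound partner Npc1 was at 439 ± 241 and 441 ± 339, with a difference of 0.08 (SE 0.36). Lipa (acid lipase) was higher in Ly6C lo in 9 of 10 mice without reaching the threshold (difference -0.52, SE 0.16, limma adjusted p = 0.106). Asah1 (acid ceramidase), Ppt1 (palmitoyl-protein thioesterase) and Smpd1 (acid sphingomyelinase) were not called, though Asah1 was called without mouse 13.

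Both acid phosphatases were higher in Ly6C lo MoMac. Acp5 (GSMG0040469, chr9:22126729-22135746) encodes the tartrate-resistant phosphatase that marks osteoclasts and some tissue macrophages. Acp5 held 316, 18.2, 109, 276 and 328 in vehicle mice and 289, 183, 444, 395 and 413 in Ac-6-FP mice in Ly6C hi MoMac (normalized counts, mice in order of number). In Ly6C lo MoMac Acp5 held 1681, 1281, 603, 2252 and 2718 in vehicle mice and 2189, 1888, 2332, 3612 and 3066 in Ac-6-FP mice. All 10 mice were higher in Ly6C lo, and the lowest Ly6C lo value (603) exceeded the highest Ly6C hi value (444). The means were 277 ± 137 and 2162 ± 868 (SD, n = 10), and the difference of -3.18 (SE 0.35, limma adjusted p = 0.000176) was the most negative among lysosomal genes above 0 in every library.

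Acp2 (GSMG0021385, chr2:91202912-91214097), the lysosomal acid phosphatase present in most cells, held 511, 280.4, 419, 729.9 and 427 in vehicle mice and 253, 269, 588, 641 and 373 in Ac-6-FP mice in Ly6C hi libraries. The Ly6C lo libraries held 1373, 266, 929, 853 and 1562 in vehicle mice and 1123, 1736, 534, 2467 and 1972 in Ac-6-FP mice. Ly6C lo values were the more variable and 8 of 10 mice were higher there. The difference of -1.36 (SE 0.32, limma adjusted p = 0.0302) was lost in 6 of 10 fits with 1 mouse left out and with edgeR. Acp5 and Acp2 each overlap exons of a neighbour on the opposite strand (6530413G14Rik and Ddb2).

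Among membrane proteins, Lamp2 (GSMG0042436, chrX:38399647-38456461) was higher in Ly6C hi in 9 of 10 mice. LAMP2 is the membrane glycoprotein needed for fusion with autophagosomes and for chaperone-mediated autophagy. Lamp2 held 7375, 6490, 5741, 6986 and 8024 in vehicle mice and 3317, 6824, 5388, 6423 and 6422 in Ac-6-FP mice in Ly6C hi MoMac (normalized counts, mice in order of number). Ly6C lo libraries of the same mice held, for Lamp2, 3665, 3745, 2515, 3773 and 3211 in vehicle mice and 3761, 4101, 4376, 4985 and 3518 in Ac-6-FP mice. The ranges overlapped little, at 3317 to 8024 in Ly6C hi and 2515 to 4985 in Ly6C lo libraries. The difference was 0.73 (SE 0.11, limma adjusted p = 0.0021), called in all other settings and with any mouse left out. Lamp1 was at 462 ± 299.9 and 322 ± 129 and was not called (difference 0.43, SE 0.35, limma adjusted p = 0.558). Cd68, the macrophage sialomucin, averaged 13382 ± 1888 and 13989.9 ± 1901, with a difference of -0.07 (SE 0.09). Laptm5, Laptm4a, Scarb2 (receptor that sorts glucocerebrosidase) and Mcoln1 (calcium channel TRPML1) were not called either, and Mcoln1 was at 0 in 11 of 20 libraries. Laptm4a was called without mouse 13.

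Of 7 proton pump genes, Atp6v1b2 (GSMG0037353, chr8:69088706-69113718), which encodes the B subunit of the catalytic head, was called. Atp6v1b2 held 3041, 3327, 2889.9, 3459 and 3247 in vehicle mice and 2699, 4125, 4812, 2924 and 3947 in Ac-6-FP mice in Ly6C hi MoMac (normalized counts, mice in order of number). Ly6C lo libraries of the same mice held, for Atp6v1b2, 1989, 1518, 2521, 1441 and 2248 in vehicle mice and 2038, 2348, 2003, 3112 and 2292 in Ac-6-FP mice. The ranges overlapped and 9 of 10 mice were higher in Ly6C hi, with a difference of 0.69 (SE 0.16, limma adjusted p = 0.0271) that was lost in 8 of 10 fits with 1 mouse left out. Atp6v1a (GSMG0015749, chr16:44085404-44139259), the A subunit that hydrolyses ATP, was higher in Ly6C hi in every mouse but was not called.

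The Ly6C hi libraries held 1323, 724, 1199, 678 and 1123 normalized counts of Atp6v1a in vehicle and 814, 1169.7, 1290.5, 1021 and 1658 in Ac-6-FP mice. In Ly6C lo libraries the values were 818, 638, 0, 445 and 606 in vehicle mice and 565, 767, 587, 525 and 626 in Ac-6-FP mice. The fitted difference of 1.72 (SE 0.83, limma adjusted p = 0.323) includes the 0 in the shallow Ly6C lo library of mouse 13. Without that mouse the difference was 0.76 with a limma adjusted p of 0.02. Atp6v0c (joint row) was also higher in Ly6C hi in all 10 mice (difference 0.69, SE 0.19, limma adjusted p = 0.0644), while Atp6ap1, an accessory subunit, was higher in Ly6C lo in 9 of 10 (difference -0.28, SE 0.09, limma adjusted p = 0.0919). Atp6v0d1 and Atp6v1h differed by 0.29 and 0.04, and Atp6v0d2, the osteoclast form of the d subunit, was at 0 in 18 of 20 libraries.

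**Figure D3:**
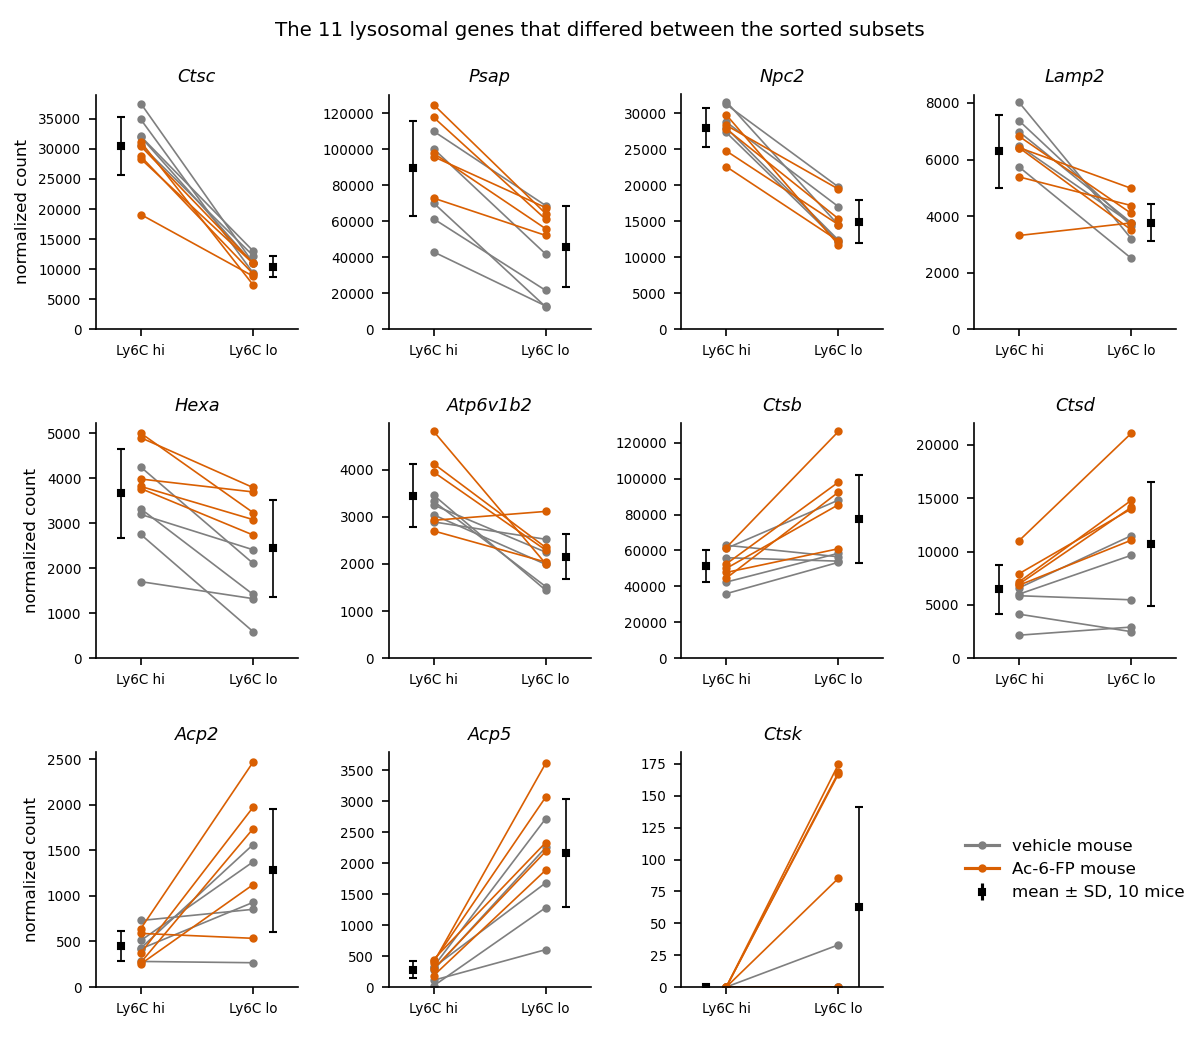
Normalized counts (y axes, linear, from 0) of the 11 lysosomal genes called between the subsets, in Ly6C hi and Ly6C lo libraries of the same mouse (joined points, vehicle in grey and Ac-6-FP in orange), with mean ± SD of 10 libraries. The Ctsk bar stops at 0. Ctsc, Npc2 and Acp5 show no overlap between the subsets.

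The 2 regulators were not called between subsets by limma. Grn (progranulin, a secreted precursor processed in lysosomes) averaged 6342 ± 2504 in Ly6C hi and 4187 ± 2187 in Ly6C lo libraries and was higher in Ly6C hi in 9 of 10 mice (difference 0.85, SE 0.28, limma adjusted p = 0.129). Tfeb was at 0 in 6 of 20 libraries and differed by -0.99 (SE 0.79). Ctsc, Npc2, Psap, Acp5 and Lamp2 were called in all 10 other settings tried and with each of the 10 mice left out in turn. With no filter on low values limma called 8 of the 51 genes, without Ctsd, Ctsk and Hexa. On recovered reads edgeR called 8 of the 49 genes, without Acp2, Ctsk and Hexa. DESeq2 called 14, without Ctsk and with Atp6ap1, Atp6v0c, Grn and Lipa added. With genes detected as a covariate, 19 of the 49 genes were called (11 higher in Ly6C hi, 8 lower), beside 1848 of all genes in place of 900. Exons of 18 of the 51 genes overlap another gene in GENCODE M21, among them Ctsb, Ctsd, Hexa, Acp2 and Acp5 of the genes called.

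Other lysosomal and related genes, listed apart from the 51, also split by gene. For each of these lists the shares of all genes called by limma were 1.81% toward Ly6C hi and 3.41% toward Ly6C lo. Of 31 other hydrolases tested, 2 were called toward Ly6C hi and 4 toward Ly6C lo by limma, and edgeR called 5 and DESeq2 8 in all. Galns, a sulfatase for keratan sulfate, averaged 397 ± 176 (SD, n = 10) in Ly6C hi and 97.8 ± 97.6 in Ly6C lo libraries, with a fitted difference of 4.11 (SE 0.71, limma adjusted p = 0.00464) that fell to 2.77 with a pseudocount of 10, since 4 Ly6C lo libraries were at 0. The joint row of Lyz1 and Lyz2, the lysozymes, differed by 1.59 (SE 0.11, limma adjusted p = 5.40e-06). Gm2a, the activator protein that presents a ganglioside to hexosaminidase, was higher in Ly6C lo (difference -0.79, SE 0.07, limma adjusted p = 2.11e-05). Ctsw, a protease of cytotoxic lymphocytes, was at 0 in 9 of 10 Ly6C hi libraries and between 108 and 3239 in Ly6C lo libraries, where the NK genes stood. It is among the genes called toward Ly6C lo, but it entered the test only through Ly6C lo means, so that direction was set by the filter.

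Of 24 other membrane proteins tested, none was called higher in Ly6C hi and 2 were called higher in Ly6C lo: Cd63, a tetraspanin, at 56.0 ± 53.5 and 1469 ± 659, and Slc11a1, a metal ion transporter of phagosomes, with a difference of -0.76 (SE 0.18, limma adjusted p = 0.034). In that list edgeR called 1 gene, leaving out Slc11a1 (adjusted p = 0.0588), and DESeq2 called 3. None of 11 other pump subunits was called by limma (4 at an unadjusted p under 0.05, with 0 called by edgeR and 0 by DESeq2). Of 18 genes for sorting and control, Tfec (difference 3.94, SE 1.01, limma adjusted p = 0.0466) and Lamtor4 (difference 1.29, SE 0.21, limma adjusted p = 0.0028) were called higher in Ly6C hi. The Tfec value rests on 6 Ly6C lo libraries at 0. Its means were 146 ± 99.4 and 75.3 ± 199 (SD, n = 10), its highest value of 637 came from a Ly6C lo library, the difference was 2.27 with a pseudocount of 10, and edgeR did not call it (adjusted p = 0.252). In this list edgeR called 1 gene and DESeq2 called 3. Of 4 cathepsin inhibitors tested, Cstb was called higher in Ly6C hi (difference 0.48, SE 0.11, limma adjusted p = 0.0223), and Cst3 (difference -1.11, SE 0.04, limma adjusted p = 4.84e-08) and Cst7 (difference -7.30, SE 0.70, limma adjusted p = 5.68e-05) higher in Ly6C lo. Cst3, cystatin C, averaged 30427 ± 3503 in Ly6C hi and 66036 ± 11271 in Ly6C lo libraries. Cst7 averaged 39.6 ± 54.5 and 1028 ± 322, with 6 Ly6C hi libraries at 0, and its difference was -5.27 with a pseudocount of 10. All 3 inhibitors were also called by edgeR and DESeq2. Cst7 is known from cytotoxic cells and moved with the NK genes, whose part was not tested.

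Promoters were read for the core of the CLEAR motif, since its factor TFEB is among the 51 genes. RefSeq (GRCm38.p6) gave the 250 bases before and 50 after the start site for 44 of the 51 genes. CACGTG occurred in 14 of the 44 (31.8%), beside 8.09% of 27025 genes, and the longer palindrome TCACGTGA, which contains it, in 6 (13.6%), beside 1.12%. Both strings read the same on either strand. The 7 genes without a promoter here were Atp6v0d2, Ctsb, Atp6v1h, Npc1, Asah1, Ctsh and Atp6v1b2. The 6 genes with the longer palindrome were Ctsa, Ctsd, Gla, Mcoln1, Atp6v0d1 and Atp6v1a, shown because their promoters hold this longer core of the element that TFEB is known to bind. The stretches carry the motif in capitals with up to 20 bases on each side, written 5′ to 3′ on the strand of the gene.
Ctsa (chr2:164833740-164833772, + strand): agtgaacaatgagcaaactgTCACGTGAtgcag
Ctsd (chr7:142387899-142387946, - strand): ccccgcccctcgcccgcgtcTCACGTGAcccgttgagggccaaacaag
Mcoln1 (chr8:3500453-3500500, + strand): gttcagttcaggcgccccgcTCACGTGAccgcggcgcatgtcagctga
Atp6v0d1 (chr8:105566061-105566088, - strand): agagccaggccctactgcggTCACGTGA
Atp6v1a (chr16:44139364-44139411, - strand): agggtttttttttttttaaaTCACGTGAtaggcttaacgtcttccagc
Gla (chrX:134601173-134601253, - strand): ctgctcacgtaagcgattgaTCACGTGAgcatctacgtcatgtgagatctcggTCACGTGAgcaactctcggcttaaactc

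The palindrome began 13 bases before the start site in Ctsa, 99 in Ctsd, 46 in Mcoln1, 4 in Atp6v0d1 and 132 in Atp6v1a. Gla held it at 228 and 195 bases before the start, and Ctsa had a further copy 5 bases after it. Between subsets, Ctsd was called higher in Ly6C lo, Atp6v1a was higher in Ly6C hi in all 10 mice, and Ctsa, Gla, Mcoln1 and Atp6v0d1 were not called, with differences of 0.21, 0.56, 0.78 and 0.29. A match of letters describes the window and no binding was measured.

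The next comparison asked how Ac-6-FP changed these genes in Ly6C hi MoMac, with 5 mice per group. None of the 49 lysosomal genes was called by limma (adjusted p under 0.05), where 0.0754% of all genes were. 8 of the 49 had an unadjusted p under 0.05 (6 higher, 2 lower with Ac-6-FP), beside 1506 of all 17248 genes (1158 higher), and edgeR and DESeq2 called none. The median difference was 0.028 (26 higher, 21 lower), whereas the median of all genes tested was 0.35. Quantile normalization moved the median of all genes to -0.015 and that of the 49 to 0.04. With genes detected as a covariate, 1 of the 49 had an unadjusted p under 0.05, beside 884 of all genes (344 higher). The median of the 49 was then -0.045 (20 higher, 27 lower), beside 0.011 for all genes.

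Some marker sums also differed with treatment in Ly6C hi libraries. Genes known from Ly6C lo monocytes (4 of 4) summed to 3194 to 20574 normalized counts in vehicle mice (median 7659) and 12855 to 20690.4 in Ac-6-FP mice (median 17085). Nr4a1 carried that rise, with means of 5656 and 14104. Cx3cr1 had means of 2078 and 2515 and Ace of 32.4 and 55.3, while Treml4 went the other way, at 1194 and 890. T and NK cell markers (4 of 5) had medians of 0.99 and 99.9, and endothelial markers (4 of 4) of 278 and 93.1. Pecam1 carried the endothelial sum, with means of 238 and 86.9, while Clec4g had means of 3.36 and 10.5. For each of these sums the groups overlapped. Medians for neutrophil markers were 5239.8 and 6723, for Kupffer cell markers 123 and 57.4, for dendritic cell markers 77.0 and 107, and for B cell markers 0 and 0. Hepatocyte markers had medians of 465 and 575, erythroid markers of 221 and 329, and stellate cell and myofibroblast markers of 206 and 299. Their part in the lysosomal values was not tested.

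Ctsd was the only lysosomal gene whose 2 Ly6C hi groups did not overlap. It ran from 2156 to 6589 in vehicle and from 6841 to 11010.3 in Ac-6-FP mice, a difference of 0.77 (SE 0.31, limma adjusted p = 0.543). Its 2-sided exact permutation p of 0.00794 is the smallest that 5 against 5 mice allow. Groups without overlap always give that value, so it is no further support. Groups did not overlap for 0.968% of all genes with Ac-6-FP higher and for 0.377% with Ac-6-FP lower, the latter including no lysosomal gene. Man2b1, Laptm5 and Hexa were also higher on average, by 0.98, 0.99 and 0.55, and Ctss and Ppt1 had differences of -0.32 and -0.44. None of these passed the adjusted threshold.

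The highest differences in Ly6C hi MoMac came from genes at 0 in some vehicle libraries. Tfeb (GSMG0016762, chr17:47737037-47792415) had 45.1, 0, 0, 1.93 and 0 normalized counts in vehicle mice and 11.2, 54.8, 122, 66.2 and 206 in Ac-6-FP mice. Its difference was 4.61 (SE 1.34, limma adjusted p = 0.411), with mouse 11 overlapping the Ac-6-FP group and 3 vehicle mice at 0, and it was 2.43 with a pseudocount of 10. Smpd1 (GSMG0034977, chr7:105554359-105558388) had 306, 0, 510, 0 and 133 normalized counts in vehicle mice and 889, 211, 225, 561 and 613 in Ac-6-FP mice. Its difference was 3.88 (SE 1.94, limma adjusted p = 0.625), or 2.56 with a pseudocount of 10.

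The lowest difference was that of Mcoln1, at -2.23 (SE 1.53), a gene at 0 in 11 of 20 libraries. Gla and Ppt1 were the lowest among genes with a mean of at least 100 in a group. Ppt1 (GSMG0027024, chr4:122836227-122859175), the thioesterase that strips palmitate from proteins, had 2314, 2617, 2154, 2018.5 and 3789 normalized counts in vehicle mice and 1528, 2114, 1802, 2127 and 1735 in Ac-6-FP mice. The groups overlapped, and the difference was -0.44 (SE 0.18, limma adjusted p = 0.543). Gla (GSMG0042843, chrX:134588149-134601005), alpha-galactosidase A, had 267, 446, 881, 245 and 452 normalized counts in vehicle mice and 361, 361, 443, 192 and 162 in Ac-6-FP mice. It differed by -0.54 (SE 0.42, limma adjusted p = 0.687), with overlapping groups. Ctsl (GSMG0010802, chr13:64361890-64370520), cathepsin L, had 665, 341, 133, 819 and 471 normalized counts in vehicle mice and 621, 902, 931, 755 and 919 in Ac-6-FP mice, and differed by 0.99 (SE 0.45, limma adjusted p = 0.581).

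In Ly6C lo MoMac most lysosomal genes had higher means with Ac-6-FP, and so did most genes overall. None of the 49 was called by limma, where 0.0522% of all genes were. 11 had an unadjusted p under 0.05, all with Ac-6-FP higher, beside 1605 of all genes, of which 1357 were higher. For the 49, edgeR called 0 and DESeq2 called 1 (Ids). The median difference was 0.70 (40 higher, 9 lower), below the 0.91 of all genes tested (12166 higher, 4663 lower). Without mouse 13, whose Ly6C lo library was shallow, the medians were 0.42 and 0.35. With quantile normalization they were 0.55 and 0.021, and with genes detected as a covariate 0.23 and 0.058. With a pseudocount of 10 in place of 1 they were 0.58 and 0.45, with edgeR 0.48 and 0.29, and with DESeq2 0.52 and 0.37. The lysosomal median was above that of all genes in these 6 settings, with no filter on low values (0.73 and 0.49) and with edgeR without mouse 15 (0.54 and 0.43). It was below it in the values first given, with a pseudocount of 0.1 (0.749 and 1.403), with genes kept from a mean of 100 upward (0.70 and 0.94) and with any of the other 9 mice left out, so its place relative to all genes depended on the setting.

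Marker genes of several other cells also had higher median sums with Ac-6-FP in Ly6C lo libraries, with groups that overlapped. Neutrophil markers (8 of 8 with a row) summed to 343 to 15912 normalized counts in vehicle mice (median 935) and 1030.2 to 27119.9 in Ac-6-FP mice (median 16355). Kupffer cell markers (6 of 6) summed to 0 to 337 (median 16.0) and 201 to 808 (median 356), with Timd4 at 0 in 4 of 5 libraries of each group. Endothelial markers (4 of 4) summed to 0 to 2115 (median 813) and 1008 to 4451 (median 2070.4). Pecam1 carried that sum, with means of 836 and 2129, beside 91.1 and 117 for Clec4g. Kdr and Stab2 were at 0 in all 5 vehicle libraries and averaged 12.3 and 43.9 with Ac-6-FP. The neutrophil, Kupffer cell and endothelial lists were lowest, or close to it, in the shallow library of mouse 13. B cell markers (3 of 3) summed to 0 to 319 (median 99.1) and 252.4 to 446 (median 307). T and NK cell markers (4 of 5) had medians of 8488 and 10923, and dendritic cell markers (5 of 5) of 1551 and 2482. Macrophage markers (5 of 5) had medians of 55159 and 72627, and positive markers of the sort (4 of 4) of 3890 and 6669. Among macrophage markers Csf1r averaged 5257 and 14585, while Cd68 and Mertk had lower means with Ac-6-FP. Genes known from Ly6C lo monocytes (4 of 4) summed to 6595 to 20104 (median 8289) and 14461 to 40874 (median 31025). Nr4a1 added most to that rise, with means of 3499 and 15144. Cx3cr1 had means of 2401 and 4857, Ace of 392 and 1012 and Treml4 of 5511 and 6117. Erythroid markers (2 of 2) went the other way in their medians, at 1904 and 434, with ranges of 154 to 18533 and 178 to 36988. Markers of hepatocytes (4 of 4) had medians of 1288 and 1335, and those of stellate cells and myofibroblasts (4 of 4) of 4.17 and 141, with Lrat at 0 in all 10 libraries. The part of these cells in the lysosomal differences was not tested.

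Ids, Manba and Hexa had Ly6C lo groups that did not overlap, with Ac-6-FP higher. This held for 1.29% of all genes, and for 0.215% with Ac-6-FP lower, which included no lysosomal gene. Ids (GSMG0042570, chrX:70343072-70365085) encodes iduronate sulfatase, which acts on heparan and dermatan sulfate. It had 0, 0, 0, 5.33 and 20.8 normalized counts in vehicle mice and 129, 141, 304, 242 and 124 in Ac-6-FP mice. The fitted difference was 6.04 (SE 1.07, limma adjusted p = 0.206). Its 2-sided exact permutation p of 0.00794 follows from the lack of overlap for which Ids is given here, so it is no further support. With a pseudocount of 10 the difference was 3.77, with mouse 13 left out it was 5.69, and DESeq2 gave an adjusted p of 0.00515. In Ly6C hi MoMac Ids was at 80.5, 2.14, 172, 0 and 0 in vehicle and 309.8, 339.7, 5.66, 20.6 and 0 in Ac-6-FP mice, where the groups overlapped.

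Manba (GSMG0024975, chr3:135485605-135571401), which cleaves mannose from glycoproteins, had 118, 0, 0, 0 and 97.4 normalized counts in vehicle mice and 152, 182, 314, 149.9 and 165 in Ac-6-FP mice in Ly6C lo libraries. The vehicle libraries of mice 12 to 14 were the lowest, and the difference was 4.84 (SE 1.63, limma adjusted p = 0.528), or 2.87 with a pseudocount of 10. In Ly6C hi libraries Manba had 124, 319, 0, 0 and 104 normalized counts in vehicle mice and 3.12, 40.9, 0, 51.6 and 145 in Ac-6-FP mice. The groups overlapped there. Hexa, whose values in each library are given above, ran from 593 to 2412 in vehicle and from 2741 to 3797 in Ac-6-FP mice, a difference of 1.22 (SE 0.35, limma adjusted p = 0.521).

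Ctsd, Psap, Ctsb and Man2b1 had means in the same direction without passing the adjusted threshold. Ctsd averaged 6402 ± 4019 in vehicle and 15011 ± 3683 in Ac-6-FP mice (SD, n = 5 each), a difference of 1.45 (SE 0.44, limma adjusted p = 0.521). Psap averaged 31514 ± 23933 and 60168 ± 6230.3, Ctsb 62066 ± 14644 and 92635 ± 23534, and Man2b1 1857 ± 1813 and 4897 ± 1228. Grn, Tpp1 and Tfeb also had an unadjusted p under 0.05, with differences of 1.65, 0.77 and 4.49 (2.55 for Tfeb with a pseudocount of 10). Tfeb stood at 63.5, 0, 0, 0 and 78.5 in vehicle and 42.6, 187, 112, 149.9 and 209.6 in Ac-6-FP mice.

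At the low end, Lamp1 (GSMG0037022, chr8:13159161-13175338) had 328, 529, 549, 300.5 and 295 normalized counts in vehicle mice and 210, 139, 351, 260.4 and 259.7 in Ac-6-FP mice. The difference was -0.72 (SE 0.34, limma adjusted p = 0.545), with overlapping groups. Gla had 351, 280, 232, 168 and 349.7 normalized counts in vehicle mice and 193, 208, 154, 248 and 209 in Ac-6-FP mice in Ly6C lo libraries and differed by -0.41 (SE 0.31, limma adjusted p = 0.613). Its groups overlapped in both subsets. Ctsc and Cd68 had differences of -0.26 (SE 0.14) and -0.12 (SE 0.13).

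**Figure D4:**
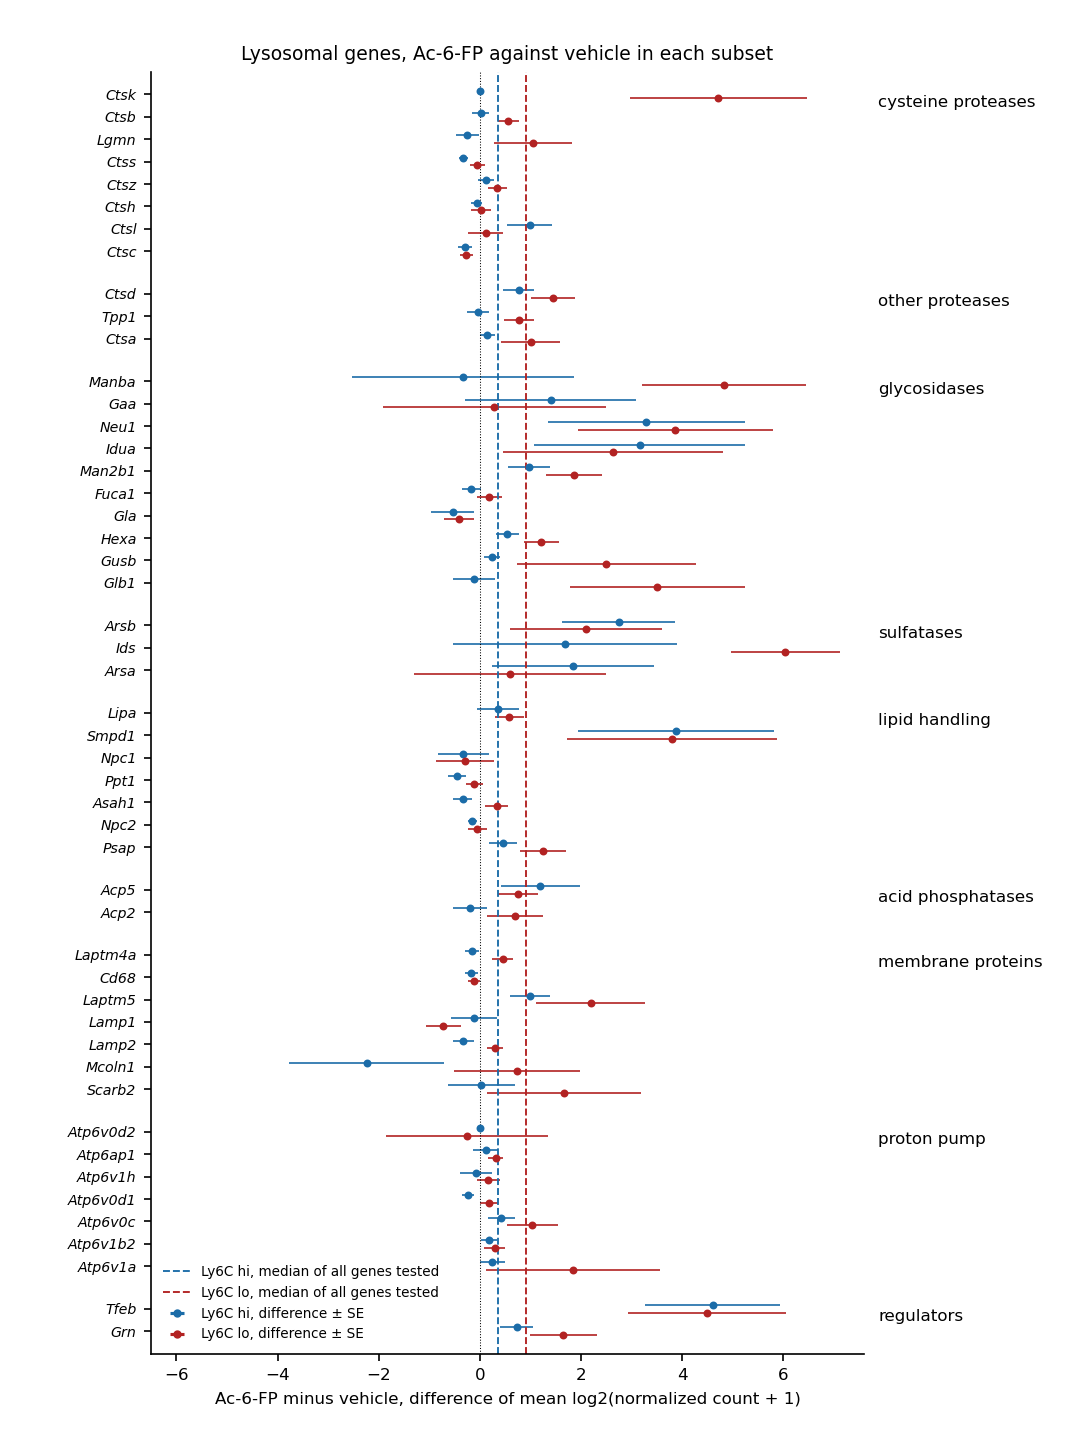
Difference Ac-6-FP minus vehicle on the log2(normalized count + 1) scale (x axis) with its SE for each lysosomal gene tested (rows, grouped by role), in Ly6C hi (blue) and Ly6C lo (red) MoMac, 5 mice per group. Dashed lines mark the median of all 17248 genes, 0.35 in Ly6C hi and 0.91 in Ly6C lo, and no lysosomal gene was called by limma in either subset.

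The pump, membrane proteins and lipid genes had small medians by role. In Ly6C hi MoMac the medians were 0.11 for 7 pump genes, -0.15 for 7 membrane proteins and -0.15 for 7 lipid genes. In Ly6C lo MoMac they were 0.29, 0.45 and 0.33. The 10 glycosidases had medians of 0.39 and 2.19, and 6 of these 10 genes were at 0 in at least 1 library. Without mouse 13 the Ly6C lo medians were 0.21 for the pump, 0.24 for membrane proteins, 0.46 for lipid genes and 1.27 for glycosidases, and with genes detected as a covariate they were 0.099, 0.11, 0.30 and 0.59. Of the 88 genes tested in the other pathway lists, limma called 0 in either subset (10 in Ly6C hi and 13 in Ly6C lo had an unadjusted p under 0.05). For them edgeR called 0 and 0, and DESeq2 2 and 0.

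The last comparison asked whether the Ac-6-FP change differed between the subsets, by setting the Ly6C hi minus Ly6C lo differences of the Ac-6-FP mice against those of the vehicle mice. It draws on the same 20 libraries as the comparisons above. None of the 49 lysosomal genes was called by limma, where 0% of all genes were (0 of 17248). 9 of the 49 had an unadjusted p under 0.05, all with the change lower in Ly6C hi than in Ly6C lo, beside 840 of all genes, of which 297 went the other way. edgeR called none of the 49 and 0 of all genes, and DESeq2 none of the 49 and 180 of all. The median was -0.42 (10 higher, 39 lower), beside -0.27 for all genes. Without mouse 13 the medians were -0.35 (14 higher, 35 lower) and 0.01, and with quantile normalization -0.31 and 0.0086.

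A looser criterion, taken from the description of how these data were first analysed, uses log2 ratios of each Ac-6-FP mouse to the vehicle mean, a paired test over those mice, and it asks for an unadjusted p no higher than 0.05 with a change of 1.5-fold or more. It leaves out the spread among vehicle mice. By it, 1 lysosomal gene (Ctsl) had the higher ratio in Ly6C hi, where 7.99% of all genes did, and 19 had the higher ratio in Ly6C lo, where 16.3% did. With the Ly6C lo library of mouse 13 left out these counts were 2 (Ctsl and Acp5, beside 11.4% of all genes) and 7 (Grn, Ctsk, Manba, Tpp1, Man2b1, Asah1 and Glb1, beside 8.67%). The 12 genes that dropped from the second count included Psap, Ctsd, Hexa and Lamp2, and the count of all genes shifted from mostly Ly6C lo to mostly Ly6C hi.

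Among genes with a mean of at least 100 in a group, those at the ends of this comparison were Manba (difference -5.17, SE 2.10, limma adjusted p = 0.83) and Ctsk (difference -4.72, SE 1.74, limma adjusted p = 0.83) on the Ly6C lo side, where Ctsk was admitted only by its Ly6C lo Ac-6-FP mean and a pseudocount of 10 gave -3.46 and -2.73, and Gaa (difference 1.12, SE 2.44, limma adjusted p = 0.931) and Ctsl (difference 0.87, SE 0.65, limma adjusted p = 0.83) on the Ly6C hi side. Gaa (GSMG0006182, chr11:119267963-119285458), the glucosidase that degrades glycogen, had 106, 0, 17.6, 110.2 and 393 normalized counts in vehicle mice and 127, 6.55, 164, 274 and 256 in Ac-6-FP mice in Ly6C hi libraries. In Ly6C lo libraries Gaa had 288, 187, 0, 509 and 125 normalized counts in vehicle mice and 226, 103, 0, 601 and 660.4 in Ac-6-FP mice. The groups overlapped in both subsets. Ctsl in Ly6C lo libraries had 369, 669, 472, 416 and 519 normalized counts in vehicle mice and 518, 295, 876, 370.1 and 759.7 in Ac-6-FP mice, and these groups overlapped too. Ctsb differed by -0.55 (SE 0.17, limma adjusted p = 0.83).

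**Figure D5:**
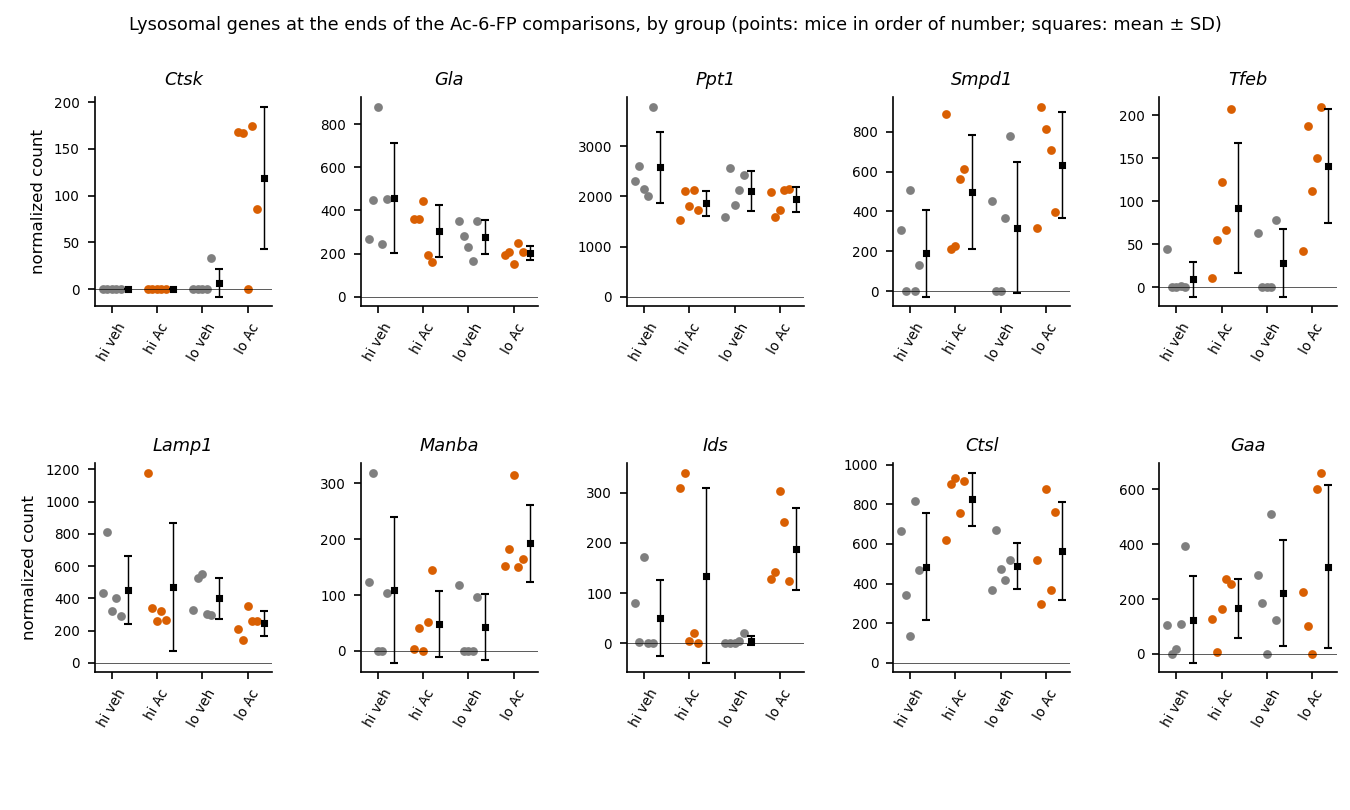
Normalized counts (y axes, linear) of the lysosomal genes at the ends of the Ac-6-FP comparisons, by group on the x axes, with 1 point per mouse and mean ± SD (squares, n = 5). Ids and Manba in Ly6C lo MoMac show Ac-6-FP values above all vehicle values, and the vehicle groups of Tfeb, Ids and Manba hold libraries at 0.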

How the data were processed

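RNA of Ly6C hi and Ly6C lo MoMac from 10 mice was sequenced as 20 libraries with a low-input kit. The authors aligned reads with STAR 2.4.0 to mm10, counted them per gene on constitutive regions of the FAST DB annotation and divided the counts by 1 DESeq2 size factor per library, so the deposited values are a signal on a linear scale, called normalized counts here. They are not divided by gene length, and levels were not compared between genes. Whole reads could be recovered for 99.93% of values above 0 (tolerance 0.006). For the Ly6C hi library of mouse 15 a read is worth nearly 1 normalized count, which makes its recovery less certain, and edgeR was also run without that mouse. 60.5% of genes carry no symbol.

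Values were taken as log2(normalized count + 1) and tested with limma 3.58.1 in R 4.3.3 (variance trend over the mean level) on 17248 genes with a mean of at least 10 in at least 1 of the 4 groups. Benjamini-Hochberg adjustment covered all genes tested, with calls at an adjusted p under 0.05. Ly6C hi and Ly6C lo were compared within mouse (10 mice), with the mean differences of both treatments averaged. Ac-6-FP was compared with vehicle in each subset (5 against 5 mice), and the within-mouse differences were compared between treatments. Both libraries of a mouse share its number because they come from 1 animal, and their residuals correlated at a median of 0.0338 (range 0.00334 to 0.25). Exact permutation tests of single genes were 2-sided.

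Named genes are lysosomal genes called in any comparison, plus the 2 largest and 2 smallest differences per comparison among those with a mean of at least 100 in a group (21 genes). The 51 genes and the other lists were chosen with earlier results of these data known. Alternatives were other pseudocounts, filters, quantile normalization, a covariate for genes detected, unpaired libraries, edgeR 4.0.16 and DESeq2 1.42.0 on recovered reads, a paired criterion on ratios, and leaving out each mouse. The edgeR fit without mouse 15 and the values without the Ly6C lo library of mouse 13 were added after seeing the data. The tests were run on simulated counts with an assumed dispersion. Genes changed in the last comparison were recovered less often there than first required, and the requirement for that comparison was then lowered. Tables were handled with Python 3.11.15, pandas 2.3.3, numpy 2.4.6 and scipy 1.17.1. Promoters came from RefSeq (GRCm38.p6) and exon overlaps from GENCODE M21 (GRCm38, the same build as mm10). Some genes of these lists are not reported here.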

Additional observations from a re-analysis of the deposited data

Results flagged for a closer look

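10 of 84 groups of 5 libraries held a mouse set apart from the other 4, with a gap to its nearest neighbour of more than 0.71 of the group's range. For normally spread values chance gives about 1 in 20 groups. Several of these groups hold libraries at 0, and their chance rate was not tested. Ctsb in Ly6C lo vehicle libraries was highest in mouse 15, at 88015 normalized counts, with the others at 53378 to 58423. Ctsc in Ly6C hi Ac-6-FP libraries was lowest in mouse 16, at 19082 normalized counts, with the others at 28321 to 31147. Ctsk in Ly6C lo vehicle libraries was highest in mouse 15, at 33.08 normalized counts, with the others at 0. Ctsd in Ly6C hi Ac-6-FP libraries was highest in mouse 20, at 11010 normalized counts, with the others at 6841 to 7921. Tfeb in Ly6C hi vehicle libraries was highest in mouse 11, at 45.14 normalized counts, with the others at 0 to 1.93. Lamp1 in Ly6C hi vehicle libraries was highest in mouse 12, at 814.6 normalized counts, with the others at 292 to 430.1. Lamp1 in Ly6C hi Ac-6-FP libraries was highest in mouse 16, at 1180 normalized counts, with the others at 257 to 339. Manba in Ly6C lo Ac-6-FP libraries was highest in mouse 18, at 314.4 normalized counts, with the others at 149.9 to 182. Ids in Ly6C lo vehicle libraries was highest in mouse 15, at 20.79 normalized counts, with the others at 0 to 5.33. Gaa in Ly6C hi vehicle libraries was highest in mouse 15, at 392.6 normalized counts, with the others at 0 to 110.2.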

How the results depend on the processing

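Between subsets, 11 of the 49 lysosomal genes were called, 19 with genes detected as a covariate, 8 with no filter on low values, 8 with edgeR, 14 with DESeq2, 7 with edgeR without mouse 15, and 6 to 14 with 1 mouse left out. Without the replicate block, that is without pairing by mouse, 9 were called, and Ctsd and Hexa were lost. Over all genes the count of 900 became 1848 with the covariate, 511 with edgeR, 1843 with DESeq2 and 392 with edgeR without mouse 15 (645 to 1125 with 1 mouse left out). For Ac-6-FP, lysosomal counts stayed at 0 in Ly6C hi under every setting, and DESeq2 called 1 in Ly6C lo (Ids). For the difference between subsets the ratio criterion called 20 lysosomal genes, and 9 without the Ly6C lo library of mouse 13, where limma called 0. Over all genes in Ly6C hi, 13 calls became 5 with no filter, 4 with a filter at 100, 0 with quantile normalization, the covariate and both edgeR fits, and 153 with DESeq2 (0 to 133 with 1 mouse left out). In Ly6C lo, 9 became 2 with a pseudocount of 10, no filter, a filter at 100 or the covariate, 0 with quantile normalization and both edgeR fits, and 113 with DESeq2 (0 to 103 with 1 mouse left out). For the difference between subsets, 0 became 2 with a filter at 100, 1 with quantile normalization, 180 with DESeq2, 4185 by the ratio criterion and 3465 by it without the Ly6C lo library of mouse 13 (0 to 4 with 1 mouse left out). The causes were not tested. No called lysosomal gene changed direction, but log2 differences of named genes that were not called changed sign. With the covariate, between subsets Smpd1 was 0.12, and for Ac-6-FP in Ly6C hi Ctsb was -0.19, Atp6v1a was -0.045 and Gaa was -0.12, and for Ac-6-FP in Ly6C lo Atp6v1a was -0.32 and Gaa was -2.52, and for the difference between subsets Gla was 0.0046. With edgeR without mouse 15, between subsets Tfeb was 0.013 and Ids was 1.59, and for the difference between subsets Ctsc was 0.084 and Tfeb was -1.74. With DESeq2, for Ac-6-FP in Ly6C hi Ctsb was -0.041 and Lamp1 was 0.041, and for the difference between subsets Tfeb was -0.048 and Gaa was -0.072. With edgeR, for Ac-6-FP in Ly6C hi Lamp1 was 0.093, and for the difference between subsets Ctsc was 0.021 and Tfeb was -0.13. With a pseudocount of 0.1, for Ac-6-FP in Ly6C hi Manba was 0.25. With quantile normalization, for Ac-6-FP in Ly6C lo Ctsl was -0.17 and Gaa was -0.28, and for the difference between subsets Ctsc was 0.13, Gla was 0.32 and Tfeb was -0.29. With a pseudocount of 10, for the difference between subsets Tfeb was -0.12. Leaving out 1 mouse gave, between subsets, -1.67 to 0.52 for Smpd1, -1.23 to 0.25 for Ids and -1.42 to 0.31 for Gaa. Leaving out 1 mouse gave, for Ac-6-FP in Ly6C hi, -0.11 to 0.093 for Ctsb, -0.52 to 0.12 for Lamp1 and -1.43 to 0.68 for Manba. Leaving out 1 mouse gave, for Ac-6-FP in Ly6C lo, -0.15 to 0.056 for Npc2, -0.0082 to 2.41 for Atp6v1a, -0.072 to 0.32 for Ctsl and -1.30 to 1.94 for Gaa. Leaving out 1 mouse gave, for the difference between subsets, -0.17 to 0.072 for Ctsc, -0.22 to 0.70 for Acp5, -0.27 to 0.070 for Atp6v1b2, -2.18 to 0.33 for Atp6v1a, -0.38 to 0.20 for Gla, -1.92 to 2.46 for Smpd1, -1.20 to 0.77 for Tfeb and -0.71 to 2.44 for Gaa. A gene at 0 had no read counted but can have an expected count of up to 3 reads, and 18 of the 51 genes were at 0 in at least 1 library.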

Other observations

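Outside the 51 genes, lysosomal and related genes had medians that differed by list. In Ly6C lo MoMac, Ac-6-FP minus vehicle had a median log2 difference of 1.31 over 31 other hydrolases, 2.39 over 24 other membrane proteins and 1.82 over 18 genes for sorting and control, beside 0.91 over all genes tested. The median was -0.12 over 11 other proton pump subunits and 0.11 over 4 cathepsin inhibitors. In Ly6C hi MoMac the same lists had medians of 0.30, 1.04, 0.31, -0.16 and 0.34, beside 0.35 over all genes. Without mouse 13 the Ly6C lo medians of these lists were 0.80, 1.23, 0.68, -0.023 and 0.006, beside 0.35 over all genes, and with a pseudocount of 10 they were 0.68, 1.38, 0.93, -0.12 and 0.10, beside 0.45. The lists were not tested as such. For the difference between subsets limma called 0 of these 88 genes (4 had an unadjusted p under 0.05), edgeR called 0 and DESeq2 called 2.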
